A study of Mus musculus with 36 samples.

Results

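The comparison described here is that of muscle stem cells from young mice whose cage held a running wheel that turned freely with those from young mice whose wheel was locked. Its members were chosen by the labels alone, and they are 9 of the 36 libraries of the study, 3 with a free and 6 with a locked wheel. Each library was made from 1 mouse, a male of 3 months of the strain the labels spell C56BL/6 with both copies of the cell cycle gene Ccnd1 intact (WT), and the wheel was in place for 3 weeks. The study also holds 12 libraries of old mice of 18 months with the same 2 wheel settings (5 free, 7 locked), whose values are given at the end beside those of the young, and 15 libraries in which Ccnd1 was the variable, which are not described. Cells were sorted from hindlimb muscle as VCAM positive and as negative for CD31, CD45, Sca1 and the dead-cell dye DAPI, and their polyA RNA was sequenced. In the locked group the wheel was present but did not turn, so the groups share the cage. Values for the distance each mouse ran are not analysed here.

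Muscle stem cells, or satellite cells, lie between the muscle fibre and its basal lamina and express the transcription factor Pax7. In resting adult muscle most of them are quiescent, that is out of the cell cycle. On injury they enter the cycle, express Myod1 and then Myog, and fuse into fibres, while some return to quiescence. Exercise is known as a setting in which satellite cells respond to signals from fibres, matrix and circulation without overt damage.

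The values are RPKM (reads per kilobase of gene, scaled to library size), a level per gene length, for 11337 genes. Differences are given as log2 of free minus locked with the standard error of the fit, so that 1 on this scale is a doubling. Across the 9 young libraries 10432 to 10613 genes exceeded 1 RPKM. The labels give 20 to 40 M reads as the depth of sequencing. Since RPKM keeps no counts, the depth of a given library is unknown and values have no counting interval. The log2 values of the 36 libraries spanned 29 of 35 possible directions, so the deposited values had been adjusted, and the p-values take no account of that step. The 9 young libraries on their own kept the full number of directions within groups (7 of 7). So small a set can keep that number after such an adjustment, so this does not show that the young values were left unadjusted. In bulk RNA of this kind, fewer cells of a type and less RNA per cell cannot be told apart.

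The markers that define satellite cells were expressed. Pax7 stood at 18.8, 26.2 and 32.5 RPKM (lowest, median and highest of the 6 locked-wheel libraries) and at 23.4, 24.9 and 27.2 RPKM in the 3 free-wheel libraries. Myf5, a myogenic factor of satellite cells, lay between 176 and 279 RPKM with the wheel locked and between 216 and 258 RPKM with it free, and Vcam1, the surface protein used for the sort, between 137 and 205 and between 189 and 217 RPKM. For all 3 genes the groups overlapped, and none was called (limma adjusted p 0.907, 0.673 and 0.412). Of the markers sorted against, Pecam1 (CD31) lay at 9.34 to 17.3 RPKM in the locked and 12.8 to 15.1 RPKM in the free libraries, and Ly6a (Sca1) at 40.4 to 62.4 and 47.5 to 50.9 RPKM. Both genes sorted against were thus measured above the median of all genes (6.06 RPKM) in every library, in similar ranges in both groups, and Ly6a lay above Pax7. The CD45 gene is not analysed here.

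Few genes passed the threshold for a wheel difference, and the changes of those called were mostly modest. Of the 11337 genes, 127 (1.12%) were called at a limma adjusted p under 0.05, of which 46 (0.406%) were higher and 81 (0.714%) lower with the free wheel. The median called increase was 1.75-fold and the median called decrease 1.46-fold, and 14 increases and 10 decreases were over 2-fold. Called genes were not confined to rare transcripts: the median level was 9.16 RPKM for those that rose and 13.7 RPKM for those that fell, against 6.06 RPKM over all genes. In 112 of the 127 the 2 groups did not overlap (41 higher and 71 lower), where over all genes the free libraries lay wholly above the locked ones in 533 (4.7%) and wholly below in 550 (4.85%). At an unadjusted p under 0.05, 1796 genes (15.8%) differed, 782 higher (6.9%) and 1014 lower (8.94%), where 567 would be expected if no gene differed. The count of calls is thus not a count of the genes that respond.

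**Figure D1:**
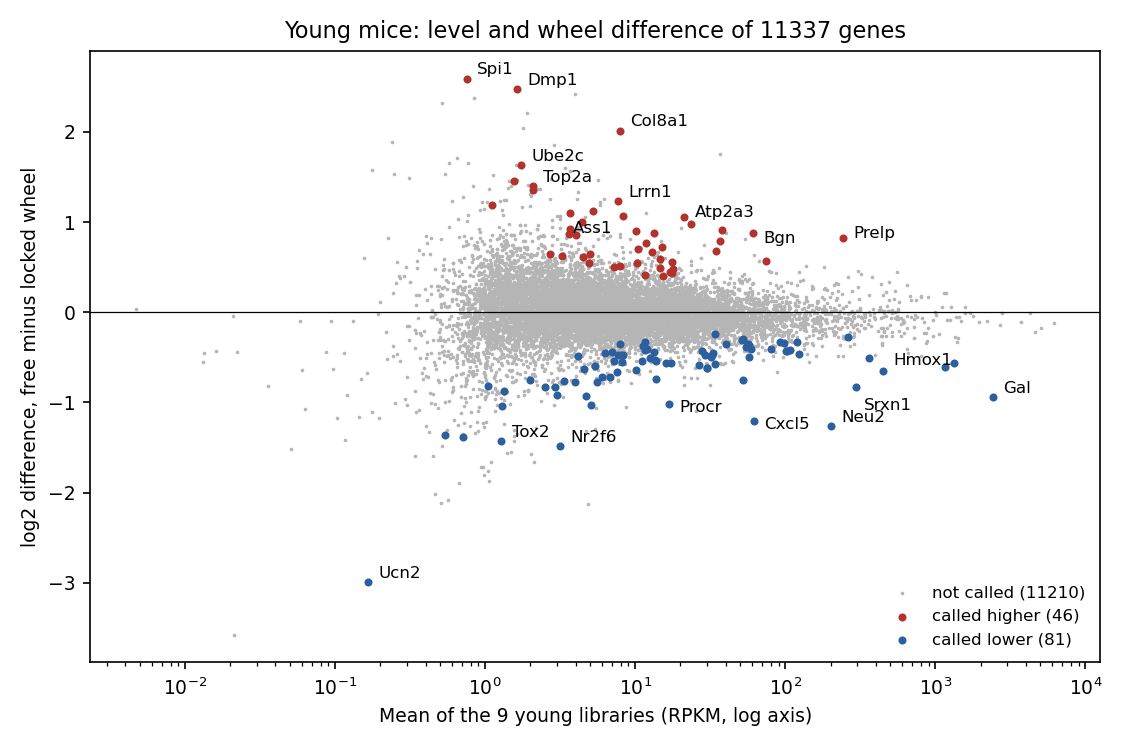
Each point is a gene, with its mean over the 9 young libraries on the x axis (RPKM, log scale) and the log2 difference, free minus locked wheel, on the y axis. The 46 genes called higher are red, the 81 called lower are blue, and genes not called are grey. Calls lie over the whole range of levels, from Ucn2 well under 1 RPKM to Gal, among the most abundant.

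The number of calls turned on single libraries. Without free-wheel replicate 2 the same fit called 5 genes, 4 of them among the 127, and without free-wheel replicate 1 it called 17, of which 15 were among them. Leaving out free-wheel replicate 3 gave 116 calls, 78 of them shared. Replicate 3 was the nearest of the 3 to the locked-wheel mean in 79 of the 127 genes. Omitting locked-wheel replicates 1 to 6 in turn gave 196, 66, 205, 74, 60 and 67 calls, with 117, 65, 123, 68, 59 and 65 of the 127 among them. No called gene changed its sign in these fits, though genes chosen for their difference in mostly the same libraries would rarely do so. Of the 127, 45 were called in at least 7 of the 9, and 3 genes were called in all 9. With only the 9 young libraries in the fit, which leaves fewer degrees of freedom for the spread, 22 genes were called, 20 of them among the 127.

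**Figure D2:**
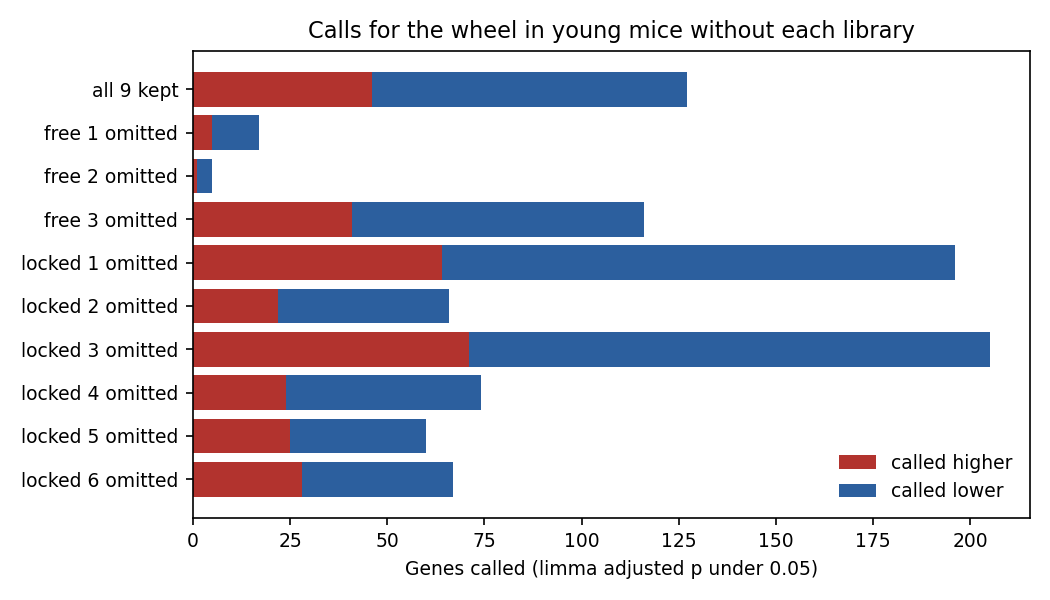
Bars give the number of genes called for the wheel in young mice (x axis, limma adjusted p under 0.05) with all 9 libraries and with each library left out, split into higher (red) and lower (blue). The count runs from 5 without free-wheel replicate 2 to 205 without locked-wheel replicate 3.

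The 3 genes called whichever library was left out were Nr2f6, Srxn1 and Ass1. Nr2f6 encodes an orphan nuclear receptor of the COUP-TF family and lies on mm10 chromosome 8, 71374123 to 71381960, minus strand. It read 3.95, 3.67, 3.48, 3.59, 5.07 and 4.22 RPKM in locked-wheel replicates 1 to 6 and 1.25, 1.92 and 1.18 RPKM in free-wheel replicates 1 to 3. All 3 free values lay under all 6 locked values, the log2 difference was -1.49 ± 0.16 (SE) and the limma adjusted p 6.96e-05. Over the 9 omissions the highest adjusted p for Nr2f6 was 0.00309.

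Ass1, argininosuccinate synthase, makes the precursor of arginine in the urea and citrulline cycles (chromosome 2, 31470207 to 31520672, plus strand). Its locked-wheel values were 5.61, 5.47, 6.51, 6.87, 4.80 and 6.87 RPKM, and its free-wheel values 14.3, 13.6 and 10.2 RPKM. The groups did not overlap, with the third free-wheel library the lowest of its group. Ass1 rose by 1.07 ± 0.15 on the log2 scale (limma adjusted p 0.00229, and at most 0.0322 over the omissions). The third gene, Srxn1, belongs with the antioxidant genes.

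**Figure D3:**
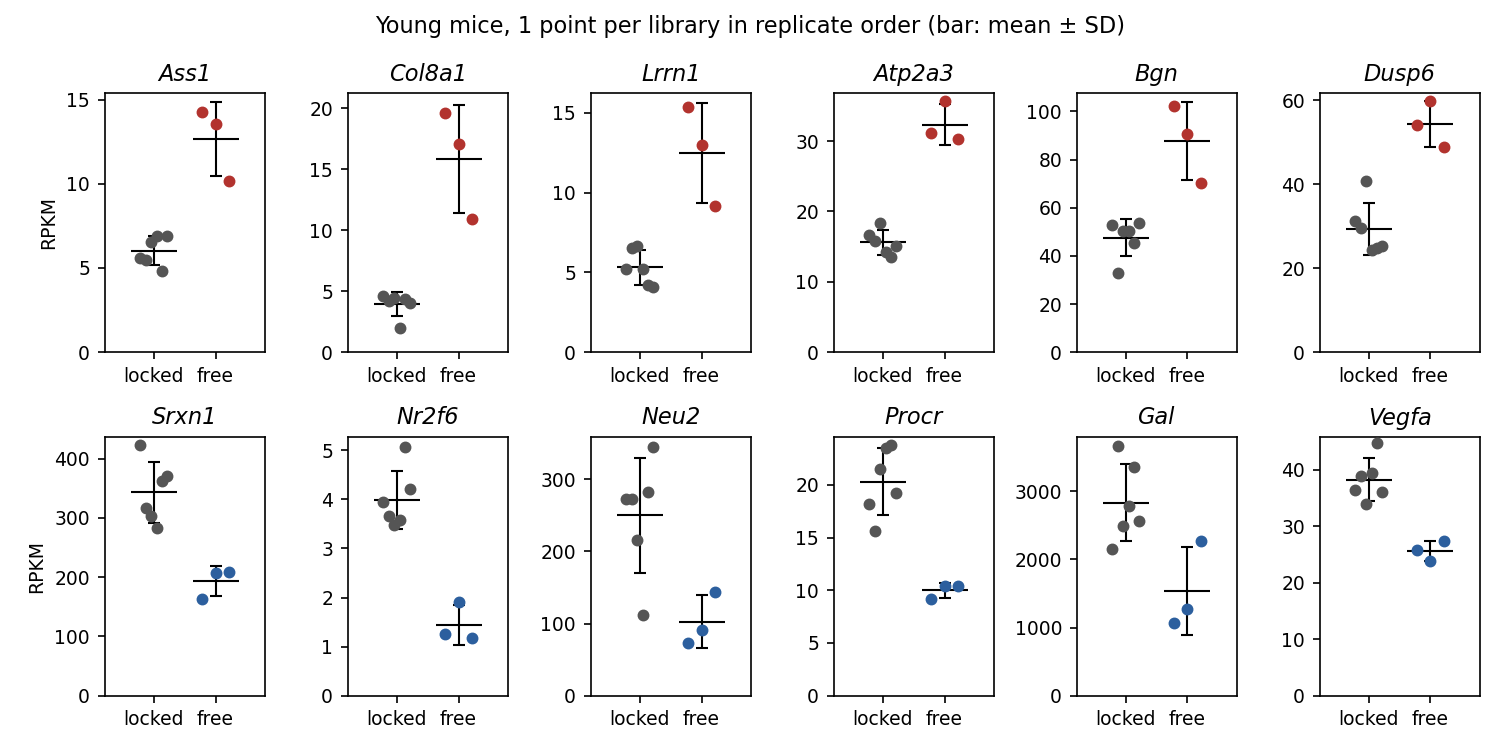
RPKM (y axis, from 0, linear) of 12 genes called in young mice, with 1 point per library in replicate order, 6 locked (grey) and 3 free (red for genes that rose, blue for genes that fell), and bars at the mean ± SD. Col8a1, Lrrn1, Bgn and Gal show the third free-wheel library nearest to the locked group, and Atp2a3, Procr and Vegfa show 3 free values close together.

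Of the 43 gene lists examined, that of G2/M and mitosis held the most calls. Of its 54 genes 30 were in the table, and 5 of them were called higher and none lower, against 0.406% of all genes called higher. Their median log2 difference was 0.73, where the median of all genes was 0.0006. In 19 of the 30 the unadjusted p was under 0.05 with the higher level in the free libraries (6.9% of all genes), and in 19 all free values exceeded all locked values (4.7% of all genes). The levels were low throughout, with a median of 2.74 RPKM over the list.

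Ube2c, the ubiquitin-conjugating enzyme of the anaphase-promoting complex, read 0.595, 1.06 and 1.51 RPKM (lowest, median and highest) in the locked libraries. It read 2.45, 3.17 and 3.70 RPKM in the free libraries, a log2 difference of 1.63 ± 0.31 (limma adjusted p 0.0117). Stmn1, stathmin, which destabilises microtubules, read 5.80, 7.61 and 11.1 RPKM against 13.2, 14.9 and 15.3 RPKM and rose by 0.90 ± 0.14 (limma adjusted p 0.00546). In both genes every free value was above every locked value.

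The other 3 called genes of the list, named after their values were seen, also rose without overlap between groups. Top2a, the topoisomerase that untangles replicated chromosomes, stood at 1.01 to 1.62 RPKM in the locked and 2.65 to 4.08 RPKM in the free libraries (log2 1.40 ± 0.28, limma adjusted p 0.0163). Ccnb2, cyclin B2, which acts with Cdk1 at entry to mitosis, stood at 2.67 to 4.15 and 5.00 to 6.40 RPKM (0.86 ± 0.20, adjusted p 0.0405). Ckap2l, a spindle protein, stood at 0.384 to 1.66 and 2.00 to 3.09 RPKM (1.46 ± 0.34, adjusted p 0.0378). All 5 genes lost their call without free-wheel replicate 2, with 0.111 for Ube2c and 0.0516 for Stmn1. Top2a also lost it without free-wheel replicates 1 or 3, and Ccnb2 and Ckap2l were called without locked-wheel replicates 1 or 3 but in no other omission. Their highest adjusted p over the omissions were 0.126, 0.167 and 0.194.

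Of the earlier phases of the cycle, 1 gene was called over 3 lists, where 1.12% of all genes were called. Of 27 S phase and replication genes with values, 1 was called, and it fell: Pcna, the sliding clamp of DNA polymerase, read 39.7, 43.5 and 49.1 RPKM with the wheel locked and 32.1, 33.8 and 35.7 RPKM with it free (log2 -0.35 ± 0.08, limma adjusted p 0.0378). Its call was lost without any one of the free-wheel libraries or without locked-wheel replicates 4 or 6 (adjusted p at most 0.213). The median of that list was 0.10, with 19 of its 27 genes above 0 and 8 below. At an unadjusted p under 0.05, 4 of them were higher and 1 lower, against 6.9% and 8.94% of all genes. None of 17 G1 cyclin, CDK and Rb/E2F genes was called by limma (2 higher and 1 lower at an unadjusted p under 0.05), and none of 6 CDK inhibitors (2 higher and 0 lower). Cdkn1a, the p21 inhibitor, ranged from 158 to 374 RPKM locked and from 297 to 442 RPKM free, with log2 0.43 ± 0.20 and adjusted p 0.302. Cdkn1b, p27, stood at 3.72 to 6.19 and 5.74 to 7.08 RPKM (0.32 ± 0.15, adjusted p 0.29), so both overlapped. E2f5, a repressor E2F, gave 10.9 to 15.3 and 9.31 to 10.2 RPKM (-0.35 ± 0.13, adjusted p 0.196).

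Ccnd1 encodes cyclin D1, which drives G1 with Cdk4 and Cdk6 (chromosome 7, 144929931 to 144939925, minus strand), and is the gene the study is built on. It read 11.1, 9.58, 14.5, 9.76, 12.3 and 10.5 RPKM in locked-wheel replicates 1 to 6 and 15.0, 19.5 and 16.9 RPKM in free-wheel replicates 1 to 3. The free values all exceeded the locked ones, though the lowest free and the highest locked value were close. The mean log2 difference of 0.61 gave p = 0.0119 in a two-sided exact permutation test over the 84 assignments of the libraries, which is the smallest p these groups allow. In the fit across all genes the limma adjusted p was 0.0639, so Ccnd1 was not called.

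Promoter windows (250 bases before to 50 after the start, RefSeq, GRCm38.p6) were available for 4 of the 5 called G2/M genes. The CCAAT box, the letters CCAAT on either strand, is a classical element of mitotic gene promoters, and 3 of these windows are shown as examples with several copies, the fourth, of Ckap2l, holding 3. Capitals mark each match, and each window is printed 5′ to 3′ on the strand of the gene. Ube2c is chr2:164769679-164769978 (plus), Ccnb2 chr9:70421505-70421804 (minus) and Top2a chr11:99024140-99024439 (minus).
Ube2c: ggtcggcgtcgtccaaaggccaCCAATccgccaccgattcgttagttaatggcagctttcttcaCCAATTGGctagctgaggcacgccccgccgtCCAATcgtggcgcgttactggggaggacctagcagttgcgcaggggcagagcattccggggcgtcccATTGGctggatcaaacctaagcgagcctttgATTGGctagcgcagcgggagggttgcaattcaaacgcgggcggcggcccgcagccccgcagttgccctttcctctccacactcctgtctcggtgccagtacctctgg
Ccnb2: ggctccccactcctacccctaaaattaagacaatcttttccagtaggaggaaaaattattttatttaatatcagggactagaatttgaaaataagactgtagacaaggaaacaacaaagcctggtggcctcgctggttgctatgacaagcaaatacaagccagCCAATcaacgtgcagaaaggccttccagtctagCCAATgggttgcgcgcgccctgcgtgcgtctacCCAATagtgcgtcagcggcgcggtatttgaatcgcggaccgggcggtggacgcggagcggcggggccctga
Top2a: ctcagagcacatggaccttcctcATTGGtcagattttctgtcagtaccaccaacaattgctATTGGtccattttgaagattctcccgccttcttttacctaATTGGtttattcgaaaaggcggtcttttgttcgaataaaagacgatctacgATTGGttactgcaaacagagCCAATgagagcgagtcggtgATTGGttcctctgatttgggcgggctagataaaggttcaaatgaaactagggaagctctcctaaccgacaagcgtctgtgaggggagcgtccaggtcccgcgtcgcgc
The Ube2c window held 6 matches, 2 of which overlap, the Ccnb2 window 3 and the Top2a window 6. All 4 called genes with a window had a match, as had 22 of the 24 list members with a window. The background was 42.4% of the 8686 genes of the table with a window and 37.4% of all 32851 windows. A match is a description of the letters and not a measured site.

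Named antioxidant genes fell. Of 35 measured genes of the antioxidant and NRF2 target list (36 in all), 4 were called lower and none higher, where 0.714% of all genes were called lower. The list's median was close to 0 (log2 -0.08), with 26 of 35 below 0, so most members moved little. NRF2 is the transcription factor that binds antioxidant response elements and induces enzymes of glutathione and thioredoxin metabolism.

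Srxn1, sulfiredoxin, which restores over-oxidised peroxiredoxins, read 424, 317, 303, 284, 363 and 370 RPKM in locked-wheel replicates 1 to 6 and 164, 208 and 208 RPKM in the free-wheel libraries. The 3 free values lay well under all locked values, and Srxn1 fell by 0.82 ± 0.13 on the log2 scale (limma adjusted p 0.00388, at most 0.0404 over the omissions). Hmox1, haem oxygenase 1, read 478, 510 and 545 RPKM locked and 297, 328 and 347 RPKM free (-0.66 ± 0.16, adjusted p 0.0497). Gclm, the regulatory subunit of the enzyme that starts glutathione synthesis and named after its values were seen, read 16.1 to 24.5 and 12.6 to 13.7 RPKM (-0.56 ± 0.13, adjusted p 0.0378). Txnrd1, thioredoxin reductase, read 104 to 123 and 79.4 to 92.2 RPKM (-0.42 ± 0.09, adjusted p 0.0351).

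In all 4 genes the groups did not overlap. The calls of Hmox1, Gclm and Txnrd1 were made only without locked-wheel replicates 1 or 3 among the 9 omissions, and their highest adjusted p there were 0.196, 0.22 and 0.273. Windows were found for Srxn1, Gclm and Txnrd1, and each held the core of an antioxidant response element, TGACNNNGC on either strand, which is why they are shown. Capitals mark that match. Srxn1 is chr2:152105274-152105573, Gclm chr3:122245307-122245606 and Txnrd1, of whose 3 windows 1 had a match, chr10:82858956-82859255, all on the plus strand.
Srxn1: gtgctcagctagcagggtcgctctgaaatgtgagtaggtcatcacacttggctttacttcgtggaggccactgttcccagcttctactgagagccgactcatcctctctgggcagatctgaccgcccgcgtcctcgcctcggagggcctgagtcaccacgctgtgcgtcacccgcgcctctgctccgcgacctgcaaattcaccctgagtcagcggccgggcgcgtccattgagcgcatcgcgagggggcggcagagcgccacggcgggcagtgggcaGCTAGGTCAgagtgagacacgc
Gclm: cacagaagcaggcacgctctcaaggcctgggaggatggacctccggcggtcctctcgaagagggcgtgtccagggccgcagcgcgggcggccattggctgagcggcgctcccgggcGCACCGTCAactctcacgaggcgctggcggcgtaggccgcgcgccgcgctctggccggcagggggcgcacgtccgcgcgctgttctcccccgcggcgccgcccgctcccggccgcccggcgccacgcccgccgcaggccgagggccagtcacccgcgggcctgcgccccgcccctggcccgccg
Txnrd1: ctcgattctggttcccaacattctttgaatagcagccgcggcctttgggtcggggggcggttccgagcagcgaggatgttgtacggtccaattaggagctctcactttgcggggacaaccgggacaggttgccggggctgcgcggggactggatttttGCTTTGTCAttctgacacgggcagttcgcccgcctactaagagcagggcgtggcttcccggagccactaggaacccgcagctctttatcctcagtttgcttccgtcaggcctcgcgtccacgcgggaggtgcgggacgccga
The match began 28 bases after the start in Srxn1, and 134 and 92 bases before it in Gclm and Txnrd1. Over the list, 11 of 29 members with a window held one, against 17.1% of genes of the whole file with a window and 12.4% of all windows.

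Other stress lists held 2 calls, both higher, where 0.406% of all genes were called higher. The list medians were log2 -0.14 for ATF4 and the unfolded protein response, -0.11 for chaperones and 0.18 for p53 targets. Below 0 were 27 of 35, 17 of 25 and 7 of 20 genes in that order. At an unadjusted p under 0.05, 1 chaperone gene was higher and 2 lower, and 6 p53 targets were higher and 1 lower. None of 35 genes of the ATF4 and unfolded protein response list was called by limma, with 1 higher and 9 lower at an unadjusted p under 0.05 (6.9% and 8.94% of all genes). Slc7a5, an amino acid transporter subunit, gave 31.9 to 54.0 RPKM locked and 24.3 to 31.7 RPKM free (log2 -0.58 ± 0.15, adjusted p 0.069). Edem1, which acts in disposal of misfolded proteins, gave 27.6 to 33.9 and 24.1 to 25.3 RPKM (-0.27 ± 0.09, adjusted p 0.118). Hspb8, a small heat shock protein, was the only call among 25 chaperone genes. It rose from 9.39 to 14.0 RPKM in the locked to 14.0, 23.6 and 24.6 RPKM in the free libraries, where the third free-wheel library met the locked range (0.72 ± 0.17, adjusted p 0.0378). Sesn1, sestrin 1, a p53 target that dampens growth signalling, was the only call of 20 p53 targets and rose from 6.28 to 11.0 RPKM to 12.9 to 14.4 RPKM (0.70 ± 0.14, adjusted p 0.019). Both calls were lost without free-wheel replicates 1 or 2 (adjusted p at most 0.143 for Sesn1), and that of Hspb8 also without locked-wheel replicates 2, 4, 5 or 6 (at most 0.316).

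Matrix and secreted proteins included the largest increase among called genes of at least 5 RPKM. Col8a1, a chain of the network-forming collagen VIII, read 4.63, 4.19, 4.47, 1.99, 4.34 and 4.06 RPKM in locked-wheel replicates 1 to 6 and 19.6, 17.0 and 10.9 RPKM in the free libraries. Even the lowest free value was over the highest locked one, and Col8a1 rose by 2.02 ± 0.40 on the log2 scale (limma adjusted p 0.019). It was the single call among 22 collagens, whose median was 0.04, where 1.12% of all genes were called. Col3a1, the fibrillar collagen chain with the next largest evidence, gave 306 to 386 RPKM locked and 431 to 475 RPKM free without overlap (0.39 ± 0.13, adjusted p 0.12).

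Among 59 other matrix genes 2 rose and 1 fell, where 0.406% of all genes were called higher and 0.714% lower. Bgn, biglycan, a small proteoglycan of matrix, stood at 33.0, 50.4 and 53.7 RPKM locked and 70.3, 90.6 and 102 RPKM free (log2 0.88 ± 0.15, limma adjusted p 0.0082). Adam12, a membrane metalloproteinase, stood at 0.725 to 1.83 RPKM locked and at 2.40, 5.90 and 2.45 RPKM free, with 1 free library well above the other two (1.36 ± 0.32, adjusted p 0.0378). Lama3, a laminin chain of basement membranes, stood at 3.46 to 6.27 and 2.37 to 2.82 RPKM and fell (-0.77 ± 0.15, adjusted p 0.016).

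Further matrix genes were called outside these lists. Prelp, a leucine-rich repeat matrix protein, read 158, 177 and 251 RPKM locked and 322, 344 and 346 RPKM free, and Itih5, a hyaluronan-binding heavy chain, 22.1, 29.1 and 37.9 against 47.3, 49.2 and 54.4 RPKM. They rose by 0.82 ± 0.15 and 0.79 ± 0.14, each with a limma adjusted p of 0.0117. Chosen after their values were seen, Dmp1, a phosphoprotein of mineralised matrix, stood at 0.327 to 1.15 and 3.15 to 3.68 RPKM (2.47 ± 0.41, adjusted p 0.00796). Adamtsl4, which binds fibrillin, stood at 14.4 to 17.4 and 19.9 to 22.9 RPKM (0.44 ± 0.09, adjusted p 0.0216), while Svep1, a large adhesion protein, fell from 2.35 to 3.50 RPKM to 1.40 to 2.05 RPKM (-0.83 ± 0.17, adjusted p 0.022). None of these 5 genes overlapped between groups.

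The matrix calls shared their dependence on 2 libraries. Those of Col8a1, Bgn, Prelp, Itih5, Lama3 and Adamtsl4 were lost without free-wheel replicates 1 or 2 and held in the 7 other omissions, with highest adjusted p of 0.144, 0.0843, 0.0877, 0.0914, 0.144 and 0.161. Dmp1 lost its call only without free-wheel replicate 2 (0.0516), Svep1 without free-wheel replicates 1 or 2 or locked-wheel replicate 5 (at most 0.182), and Adam12 was called in 3 of the 9 omissions, those of free-wheel replicate 3 and locked-wheel replicates 1 and 3 (at most 0.33).

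Of 42 genes of the FGF, ERK and growth factor list 2 rose and 2 fell, where 0.406% of all genes were called higher and 0.714% lower. The increases were a pair of intracellular regulators of the Ras to ERK route. Dusp6, a phosphatase that inactivates ERK and is itself induced by it, read 24.4, 27.4 and 40.7 RPKM locked and 48.9, 54.1 and 59.7 RPKM free (log2 0.91 ± 0.18, limma adjusted p 0.0168). Grap, an adaptor related to Grb2, read 2.43, 3.83 and 5.02 RPKM locked and 5.98, 6.97 and 11.6 RPKM free (1.13 ± 0.26, adjusted p 0.0378).

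The decreases were ligands. Vegfa, the main growth factor of blood vessels, stood at 36.4, 38.9, 33.9, 39.5, 44.8 and 36.1 RPKM in locked-wheel replicates 1 to 6 and at 25.8, 23.8 and 27.4 RPKM in the free libraries, with a clear gap (-0.57 ± 0.09, limma adjusted p 0.00388). Fgf2, a satellite cell mitogen, stood at 2.27 to 4.51 RPKM locked and 1.46 to 2.32 RPKM free, with a slight overlap (-0.91 ± 0.22, adjusted p 0.0442). Spry2, a feedback inhibitor of FGF signalling linked to satellite cell quiescence, was not called at 36.5 to 38.6 RPKM against 25.7 to 31.3 RPKM (-0.35 ± 0.11, adjusted p 0.11), though the groups did not overlap. Without free-wheel replicate 2 the adjusted p of Vegfa was 0.0516, its only lost call. Dusp6 was lost without free-wheel replicates 1 or 2 (at most 0.144), Grap also without locked-wheel replicates 2, 4 or 5 (at most 0.25), and Fgf2 without those 2 free-wheel libraries or locked-wheel replicates 2, 4, 5 or 6 (at most 0.316).

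Of 43 TGF-beta and BMP genes, 2 fell and none rose, where 0.714% of all genes were called lower and 0.406% higher. Id4, an inhibitor of basic helix-loop-helix factors induced by BMP, read 3.83, 6.11 and 8.17 RPKM locked and 2.11, 2.87 and 3.95 RPKM free (log2 -1.03 ± 0.23, limma adjusted p 0.0328). Smad7, the inhibitory Smad, read 7.97, 9.25 and 9.90 RPKM locked and 5.45, 7.11 and 7.36 RPKM free (-0.47 ± 0.11, adjusted p 0.0378). Only Id4 overlapped between groups. The ligand Tgfb2 was not called at 11.3 to 16.1 and 13.9 to 19.8 RPKM (0.35 ± 0.11, adjusted p 0.117). In the Wnt list, Lgr4, a receptor for R-spondins, was the 1 call among 31 genes and fell from 7.20 to 8.69 RPKM to 5.44 to 5.93 RPKM (-0.44 ± 0.09, adjusted p 0.0234). Each of these 3 calls was lost without free-wheel replicates 1 or 2, Id4 also without free-wheel replicate 3 or locked-wheel replicates 4 or 6 and Smad7 without locked-wheel replicates 2, 4 or 5, with highest adjusted p of 0.182 for Lgr4, 0.14 for Id4 and 0.258 for Smad7.

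Chemokine and cytokine genes changed in both directions. Cx3cl1, fractalkine, a membrane-bound chemokine for monocytes, rose from 8.67, 10.1 and 13.0 RPKM locked to 18.5, 18.9 and 19.8 RPKM free (log2 0.88 ± 0.15, limma adjusted p 0.00875). Cxcl5, a neutrophil chemokine, read 53.2, 69.3 and 126 RPKM locked and 19.2, 33.7 and 48.6 RPKM free, and fell by 1.20 ± 0.28 (adjusted p 0.0378). These were the 2 calls among 25 chemokine and complement genes, where 1.12% of all genes were called, and neither overlapped between groups. Il1r1, the interleukin 1 receptor, was the 1 call of 24 NF-kB and inflammation genes, at 28.5 to 41.4 and 19.1 to 24.6 RPKM (-0.61 ± 0.15, adjusted p 0.048). Il12a, the p35 subunit of interleukin 12, outside the lists and named after its values were seen, rose from 2.08 to 4.44 RPKM to 4.40, 4.81 and 6.13 RPKM, with a slight overlap (0.87 ± 0.21, adjusted p 0.0405). Il15ra, the receptor chain for interleukin 15, fell from 6.71 to 10.9 RPKM to 4.42 to 6.34 RPKM (-0.67 ± 0.16, adjusted p 0.0428).

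No gene of the JAK/STAT and IL-6 family list was called by limma among 24 (1 higher and 5 lower at an unadjusted p under 0.05), nor of the interferon list among 38 (0 higher and 9 lower). Over all genes 1.12% were called, and 6.9% were higher and 8.94% lower unadjusted. Their leading genes were Clcf1, a cytokine of the IL-6 family, at 118 to 191 and 100 to 119 RPKM (log2 -0.47 ± 0.12, adjusted p 0.0514), and the kinase gene Pim1 at 33.5 to 60.8 and 30.9 to 35.5 RPKM (-0.54 ± 0.15, adjusted p 0.0735). Interferon-induced Rtp4 stood at 11.3 to 14.0 and 7.80 to 9.46 RPKM (-0.55 ± 0.18, adjusted p 0.12) and Ifit3 at 4.73 to 9.63 and 3.98 to 5.62 RPKM (-0.59 ± 0.21, adjusted p 0.168). The calls of Cx3cl1, Cxcl5, Il1r1 and Il15ra were all lost without free-wheel replicates 1 or 2. Cxcl5 was also lost without locked-wheel replicates 2, 4 or 6, Il15ra without locked-wheel replicates 2, 4, 5 or 6, and Il1r1 without those or free-wheel replicate 3. Highest adjusted p over the omissions were 0.0668, 0.25, 0.316 and 0.251 for Cx3cl1, Cxcl5, Il1r1 and Il15ra. The omissions of locked-wheel replicates 3 or 6 were the only ones in which Il12a kept its call (at most 0.294 in the others).

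Of 31 neuropeptide and hormone genes 1 was called lower and none higher (0.714% and 0.406% of all genes). At an unadjusted p under 0.05, 9 were lower and 1 higher (8.94% and 6.9% of all genes), and the list median was -0.20. Gal, which encodes the peptide galanin, was among the most abundant transcripts, at 2151, 3659, 2487, 2781, 3364 and 2566 RPKM in locked-wheel replicates 1 to 6. It read 1067, 1272 and 2278 RPKM in the free libraries, where the third lay within the locked range, and fell by 0.94 ± 0.18 on the log2 scale (limma adjusted p 0.016). The call was lost without free-wheel replicates 1 or 2 (at most 0.147).

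Oxtr, the oxytocin receptor, and the genes Adm and Ucn2 were picked after their values were seen. Oxtr was not called at 2.58 to 9.40 RPKM locked and 0.321, 4.25 and 1.56 RPKM free (-2.13 ± 0.56, limma adjusted p 0.0722). Ucn2, a peptide of the corticotropin-releasing family, was at the low end of the table with 0.0760 to 0.336 RPKM locked and 0.103, 0.00800 and 0.0184 RPKM free (-3.00 ± 0.66, adjusted p 0.0287), so its large difference rests on levels far under 1 RPKM and the groups overlapped. Adm, adrenomedullin, a peptide that widens vessels, rose from 7.84 to 11.5 RPKM to 14.3 to 18.2 RPKM (0.77 ± 0.13, adjusted p 0.0082). Adm lost its call without free-wheel replicates 1 or 2 (at most 0.0717), and Ucn2 without free-wheel replicates 2 or 3 or locked-wheel replicates 4, 5 or 6 (at most 0.27).

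Genes of calcium handling and excitability included opposite changes of a pair of calcium pumps. Atp2a3, the SERCA3 pump, read 16.7, 15.7, 18.4, 14.2, 13.5 and 15.1 RPKM in locked-wheel replicates 1 to 6 and 31.1, 35.6 and 30.2 RPKM in the free libraries, and rose by 1.05 ± 0.20 (limma adjusted p 0.0131). Atp2a2, the SERCA2 pump, read 72.7, 87.7 and 96.6 RPKM locked (lowest, median and highest) and 62.4, 63.8 and 70.3 RPKM free, and fell by 0.40 ± 0.09 (adjusted p 0.0256). Even so, Atp2a2 remained the more abundant per length in every one of the 9 libraries. They were the 2 calls among 36 genes of the list, whose median was -0.15, where 1.12% of all genes were called. Casq1, the calcium store protein of fibres, was not called at 1.14 to 2.29 and 0.850 to 1.52 RPKM (-0.41 ± 0.37, adjusted p 0.636).

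Other genes of membrane signalling were named for the size of their difference. Kcnma1, the large calcium-activated potassium channel, stood at 6.02 to 8.90 and 3.91 to 4.59 RPKM (log2 -0.72 ± 0.15, limma adjusted p 0.019). Homer1, a scaffold that ties glutamate receptors to calcium stores, stood at 13.0 to 18.5 and 8.58 to 10.7 RPKM (-0.74 ± 0.12, adjusted p 0.00546). Gnai1, an inhibitory G protein subunit named after its values were seen, stood at 3.16 to 3.69 and 1.87 to 1.95 RPKM (-0.83 ± 0.14, adjusted p 0.0082). Procr, the endothelial protein C receptor, stood at 15.6, 20.3 and 23.8 RPKM locked and 9.15, 10.4 and 10.4 RPKM free and fell (-1.01 ± 0.20, adjusted p 0.0161). Lrrn1, a leucine-rich repeat membrane protein, rose from 4.07, 5.19 and 6.66 RPKM to 9.15, 13.0 and 15.4 RPKM (1.23 ± 0.25, adjusted p 0.0219). None of these 5 overlapped between groups.

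Atp2a3, Kcnma1, Procr and Lrrn1 lost their calls without free-wheel replicates 1 or 2, and Atp2a2 also without locked-wheel replicates 5 or 6. Their highest adjusted p were 0.136, 0.143, 0.123, 0.161 and 0.213 in that order. Homer1 and Gnai1 lost theirs only without free-wheel replicate 2, at 0.0516 and 0.0582.

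Among the metabolic lists, only that of amino acid, urea cycle and nicotinamide enzymes held calls. Of its 38 genes 1 rose (Ass1) and 1 fell, where 0.406% of all genes were called higher and 0.714% lower. Nnmt, which methylates nicotinamide, read 47.4, 60.0 and 70.5 RPKM locked and 32.0, 32.3 and 42.9 RPKM free (log2 -0.76 ± 0.16, limma adjusted p 0.0234). Its groups did not overlap. Neu2, the cytosolic sialidase, outside these lists, had the largest decrease among called genes of at least 5 RPKM: 272, 273, 216, 112, 282 and 345 RPKM in locked-wheel replicates 1 to 6 and 73.3, 91.3 and 143 RPKM in the free libraries (-1.26 ± 0.27, adjusted p 0.0274). Locked-wheel replicate 4 of Neu2 lay inside the free range. Nnmt lost its call without free-wheel replicates 1 or 2 or locked-wheel replicate 5 (at most 0.209), and Neu2 without free-wheel replicates 1 or 2 or locked-wheel replicates 2, 5 or 6 (at most 0.186).

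Energy metabolism held no limma call in any list, where 1.12% of all genes were called, and 6.9% were higher and 8.94% lower unadjusted. For 75 nuclear genes of oxidative phosphorylation the median log2 difference was -0.01, with 2 higher and 3 lower at an unadjusted p under 0.05. Uqcrb, of complex III, gave 68.2 to 87.5 and 64.7 to 67.0 RPKM (-0.20 ± 0.08, adjusted p 0.204), and Ndufv3, of complex I, 8.75 to 11.96 and 11.3 to 12.4 RPKM (0.25 ± 0.09, adjusted p 0.182). Of 11 mitochondrially encoded genes, 10 were below 0 (median -0.23, 0 higher and 1 lower unadjusted), such as ND5 at 718 to 1059 and 717 to 793 RPKM (-0.23 ± 0.11, adjusted p 0.316) and ATP6 at 3.30 to 5.17 and 2.85 to 3.45 RPKM (-0.40 ± 0.20, adjusted p 0.342). Tfam, which packages mitochondrial DNA, came close to a call among 34 genes of mitochondrial biogenesis and fatty acid oxidation (3 higher and 1 lower unadjusted), at 12.3 to 15.9 and 11.0 to 11.9 RPKM (-0.34 ± 0.10, adjusted p 0.0915). Fabp3, a fatty acid carrier, gave 1.15 to 2.58 and 2.26 to 3.04 RPKM (0.53 ± 0.21, adjusted p 0.218).

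Glycolysis (29 genes, 2 higher and 1 lower unadjusted) was led by Pfkfb3, which raises glycolytic flux, at 6.54 to 11.3 and 11.6 to 13.0 RPKM (log2 0.48 ± 0.21, limma adjusted p 0.265). Hk1, hexokinase 1, stood at 19.2 to 25.5 and 26.4 to 27.3 RPKM (0.27 ± 0.13, adjusted p 0.307). Cholesterol and fatty acid synthesis (35 genes, 5 higher and 0 lower unadjusted) was led by the desaturases Scd1, at 14.9 to 28.2 and 19.1 to 38.4 RPKM (0.53 ± 0.19, adjusted p 0.177), and Scd2, at 16.1 to 29.9 and 19.6 to 46.2 RPKM (0.60 ± 0.22, adjusted p 0.175). Among 22 glucocorticoid targets (4 higher and 2 lower unadjusted) Klf15, a metabolic transcription factor, stood at 1.40 to 2.08 and 2.36 to 2.94 RPKM (0.55 ± 0.21, adjusted p 0.203) and Errfi1, an inhibitor of EGF receptors, at 1061 to 1145 and 819 to 1008 RPKM (-0.24 ± 0.09, adjusted p 0.205). None of these genes was called. The unadjusted shares over all genes were 6.9% higher and 8.94% lower.

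None of 73 genes of the ribosome biogenesis list was called by limma. In 62 of them the difference was below 0 (median log2 -0.15), 0 were higher and 23 lower at an unadjusted p under 0.05 (6.9% and 8.94% of all genes), and in 24 the free values all lay under the locked ones, against 4.85% of all genes. Nop14 was nearest to a call at 42.9 to 51.2 and 34.0 to 39.3 RPKM (-0.35 ± 0.09, limma adjusted p 0.0572), with Mphosph10 at 23.7 to 29.9 and 18.6 to 21.3 RPKM (-0.39 ± 0.10, adjusted p 0.0616). Both act in the small-subunit processome. Outside the list, and named after their values were seen, 3 genes of ribosome assembly fell without overlap: Nmd3, the export adaptor of the large subunit, from 10.9 to 13.5 RPKM to 8.94 to 9.75 RPKM (-0.37 ± 0.09, adjusted p 0.037), Snu13, a protein of box C/D particles, from 97.7 to 109 RPKM to 77.5 to 92.5 RPKM (-0.34 ± 0.07, adjusted p 0.0234), and Dnajc21, a chaperone of the large subunit, from 8.28 to 10.6 RPKM to 6.01 to 6.62 RPKM (-0.55 ± 0.11, adjusted p 0.0184). Their calls were lost without free-wheel replicates 1 or 2, that of Dnajc21 also without free-wheel replicate 3 (at most 0.126), that of Snu13 without locked-wheel replicate 5 (at most 0.213) and that of Nmd3 without free-wheel replicate 3 or locked-wheel replicates 4, 5 or 6 (at most 0.253). For 79 ribosomal protein genes the median was -0.04 (0 higher and 1 lower unadjusted), with Rpl24 at 9.47 to 15.5 and 8.99 to 9.98 RPKM (-0.38 ± 0.11, adjusted p 0.0915) and Rpl13a at 10.7 to 13.3 and 12.9 to 14.0 RPKM (0.17 ± 0.09, adjusted p 0.363). Ribosomal protein genes have near-identical pseudogenes, so their levels are uncertain.

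Genes of RNA processing and the cytoskeleton were picked after their values were seen and form no fixed list. The splicing factors Srsf1 and Srsf7 stood at 28.0 to 35.7 and 22.2 to 24.3 RPKM (log2 -0.48 ± 0.10, limma adjusted p 0.0234) and at 268.5 to 301.5 and 223 to 234 RPKM (-0.28 ± 0.06, adjusted p 0.0348). The nuclear RNA-binding genes Sfpq and Hnrnpab stood at 32.3 to 39.2 and 23.7 to 27.4 RPKM (-0.47 ± 0.11, adjusted p 0.0442) and at 57.0 to 73.8 and 45.8 to 52.2 RPKM (-0.41 ± 0.10, adjusted p 0.0378). Srf, the transcription factor of actin genes, stood at 12.4 to 15.7 and 8.95 to 10.4 RPKM (-0.50 ± 0.09, adjusted p 0.0086). Actg1, cytoplasmic gamma actin, stood at 1049 to 1519 and 701 to 1045 RPKM (-0.61 ± 0.14, adjusted p 0.0378), and Tuba4a, an alpha tubulin, at 25.6 to 34.5 and 15.8 to 22.6 RPKM (-0.58 ± 0.11, adjusted p 0.0161).

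Other cytoskeletal genes rose: Tubb3, a beta tubulin, from 0.428 to 1.12 RPKM to 1.16, 2.01 and 2.09 RPKM (log2 1.19 ± 0.29, limma adjusted p 0.0497), Dpysl3, a microtubule-associated protein, from 1.54 to 3.36 RPKM to 3.74, 6.27 and 7.26 RPKM (1.11 ± 0.27, adjusted p 0.0442), and Fscn1, the actin bundler fascin, from 51.7 to 89.3 RPKM to 88.7, 95.6 and 100.04 RPKM (0.57 ± 0.14, adjusted p 0.0442). Of these 3 only Fscn1 overlapped between groups. Each lost its call without free-wheel replicates 1 or 2 and without locked-wheel replicates 1, 2, 5 or 6, Fscn1 also without free-wheel replicate 3, and Tubb3 and Dpysl3 without locked-wheel replicate 4 (at most 0.316 for Tubb3, 0.273 for Dpysl3 and 0.271 for Fscn1).

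In none of the 7 that fell did the groups overlap, though for Actg1 the gap was narrow. All 7 lost their calls without free-wheel replicate 2, and all but Tuba4a also without free-wheel replicate 1. Srf and Tuba4a were called in the remaining omissions, with at most 0.0908 and 0.209. The other 5 were also lost without 2 or more further libraries, each time including locked-wheel replicates among 2, 4, 5 and 6 (highest adjusted p 0.181 for Srsf1, 0.23 for Srsf7, 0.287 for Sfpq, 0.27 for Hnrnpab and 0.249 for Actg1), and for Srsf7 and Sfpq free-wheel replicate 3 as well.

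Transcription and chromatin genes held scattered calls, where 1.12% of all genes were called. Hist1h1c, a linker histone, was the 1 call of 13 histone genes and rose from 13.4, 16.6 and 22.1 RPKM to 22.5, 40.5 and 42.2 RPKM (log2 0.98 ± 0.21, limma adjusted p 0.0288). Hlf, a clock output factor, was the 1 call of 24 circadian genes and fell from 1.10, 1.52 and 2.08 RPKM to 0.467, 0.736 and 1.18 RPKM, with a slight overlap (-1.04 ± 0.24, adjusted p 0.0378). That list had 1 gene higher and 7 lower at an unadjusted p under 0.05 (6.9% and 8.94% of all genes) and a median of -0.17. The E-box of the clock factors, CACGTG on either strand, was absent from the Hlf window and present in 5 of 19 windows of the list, against 12.3% of genes of the table with a window and 7.15% of all windows. Tox2, an HMG-box factor named after its values were seen, stood at 1.34 to 2.05 and 0.420 to 1.01 RPKM (-1.43 ± 0.28, adjusted p 0.0151). Tox2 lost its call without free-wheel replicates 2 or 3 (at most 0.144), Hist1h1c without free-wheel replicates 1 or 2 or locked-wheel replicates 2 or 4 (at most 0.246), and Hlf without those or locked-wheel replicate 6 (at most 0.258).

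Genes that define satellite cells held no call, and those of differentiation held 1, where 1.12% of all genes were called. Of 35 identity and quiescence genes none was called by limma (median log2 -0.00, 4 higher and 2 lower at an unadjusted p under 0.05). Dag1, dystroglycan, gave 178 to 228 and 222 to 267 RPKM (0.33 ± 0.10, adjusted p 0.0972). Of 20 genes of myogenic activation and differentiation 15 were above 0 and 5 below (median log2 0.30). At an unadjusted p under 0.05, 7 of them were higher and 2 lower, against 6.9% and 8.94% of all genes, and 1 was called by limma. Chrna1, a subunit of the acetylcholine receptor, rose from 19.9, 29.5 and 33.9 RPKM to 32.5, 52.0 and 54.3 RPKM, with the third free-wheel library inside the locked range (0.68 ± 0.16, adjusted p 0.037). Its call was lost without free-wheel replicates 1 or 2 or locked-wheel replicates 2, 4, 5 or 6 (at most 0.293).

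Myog, myogenin, which drives fusion, was picked after its values were seen: 26.8, 20.4, 48.4, 14.1, 11.7 and 10.1 RPKM in locked-wheel replicates 1 to 6 and 87.9, 70.2 and 41.8 RPKM in the free libraries. The spread among locked libraries was wide, locked-wheel replicate 3 exceeded the lowest free value, and Myog was not called (log2 1.76 ± 0.49, limma adjusted p 0.0862). Myod1, likewise picked, gave 543 to 816 and 499.7 to 564 RPKM (-0.41 ± 0.15, adjusted p 0.168).

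The Notch and YAP/TEAD lists held no limma call, where 1.12% of all genes were called. For Notch (29 genes, 3 higher and 1 lower at an unadjusted p under 0.05) the leading genes were Hes6 at 6.23 to 9.24 and 9.75 to 12.4 RPKM (log2 0.55 ± 0.15, adjusted p 0.081) and the ligand Jag1 at 9.52 to 14.7 and 7.36 to 9.42 RPKM (-0.41 ± 0.12, adjusted p 0.0994). For YAP/TEAD targets (26 genes, 2 higher and 3 lower) Lats1, the kinase that restrains YAP, gave 9.21 to 12.5 and 7.96 to 8.61 RPKM (-0.36 ± 0.10, adjusted p 0.0815). Of 34 immediate early genes Dusp6 was the only call, with 4 higher and 8 lower unadjusted. Over all genes 6.9% were higher and 8.94% lower unadjusted.

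**Figure D4:**
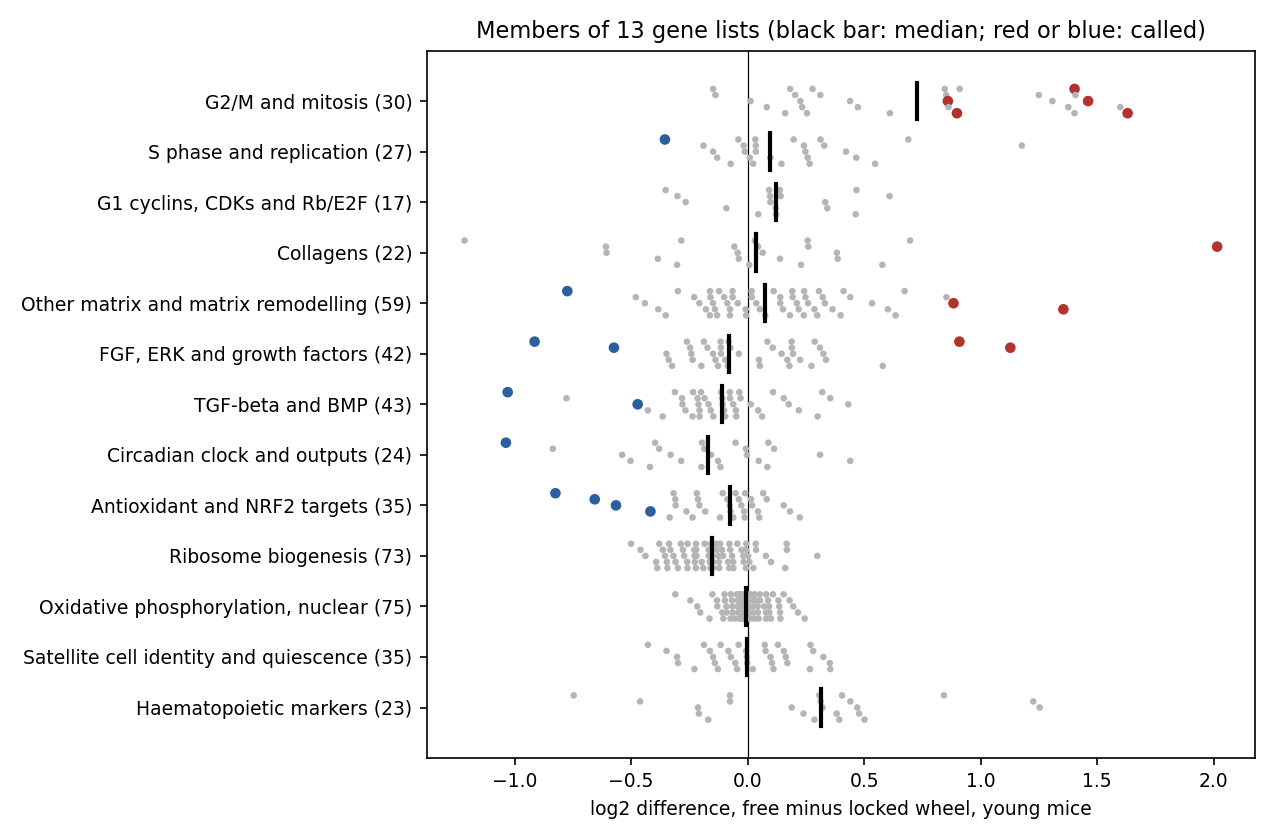
The log2 difference, free minus locked wheel, in young mice (x axis) of the measured members of 13 gene lists (y axis, number measured in brackets). Grey points were not called, red were called higher and blue lower, and the black bar is the list median. The G2/M list has a median of 0.73 and 5 calls higher, and the antioxidant list a median of -0.08 with 4 calls lower.

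Markers of other cell types were present in all 9 libraries. Over 23 haematopoietic markers (29 in the list) none was called by limma (2 higher and 0 lower at an unadjusted p under 0.05, median log2 0.31), and their summed level was 141 to 284 RPKM in the locked and 204 to 288 RPKM in the free libraries. None had a mean under 1 RPKM. The unadjusted shares over all genes were 6.9% higher and 8.94% lower. C1qa, of complement in macrophages, stood at 2.09 to 6.06 and 6.26 to 12.8 RPKM (1.23 ± 0.45, adjusted p 0.178), Laptm5 at 1.17 to 3.16 and 3.01 to 4.55 RPKM (0.84 ± 0.36, adjusted p 0.261) and Csf1r, a macrophage receptor picked after its values were seen, at 0.632 to 1.70 and 0.761 to 1.45 RPKM (0.29 ± 0.55, adjusted p 0.848). Globin genes of this list have near-identical copies and are uncertain.

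Spi1, which encodes PU.1, a transcription factor of myeloid and B cells, was outside the lists and picked after its values were seen. It read 0.687, 0.0611, 0.683, 0.363, 0.250 and 0.109 RPKM in locked-wheel replicates 1 to 6 and 1.63, 1.51 and 1.497 RPKM in the free libraries. Spi1 had the largest called increase on the log2 scale (2.59 ± 0.56, limma adjusted p 0.0278), at levels around 1 RPKM. Its call was lost without any one of the free-wheel libraries or without locked-wheel replicates 5 or 6 (at most 0.154). The part of blood cells in the differences of Spi1 and C1qa was not tested.

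Endothelial markers (20, none called, 0 higher and 0 lower unadjusted) summed to 411 to 613 and 443 to 532 RPKM, with Kdr, a vessel receptor picked after its values were seen, at 4.07 to 11.6 and 7.86 to 8.81 RPKM (log2 0.12 ± 0.33, limma adjusted p 0.898). Cldn5, a tight junction protein of vessels, gave 10.7 to 27.1 and 12.5 to 17.9 RPKM (-0.38 ± 0.24, adjusted p 0.478), and Plvap 12.7 to 42.4 and 10.7 to 25.7 RPKM (-0.54 ± 0.38, adjusted p 0.524). Fibro-adipogenic markers (18, none called, 2 higher and 2 lower) summed to 1531 to 2022 and 1800.3 to 1946 RPKM. Of these 18, 11 were above 0 and 7 below (median 0.13). Col3a1, given with the collagens, is also a member and was higher (0.39 ± 0.13, adjusted p 0.12). Lox, which cross-links collagen, was lower at 28.5 to 51.5 and 27.9 to 32.2 RPKM (-0.38 ± 0.14, adjusted p 0.175). Smooth muscle and pericyte markers (14, none called, 0 and 0) summed to 674 to 1032 and 789 to 950.3 RPKM, with Acta2 at 179 to 287 and 208 to 288 RPKM (0.24 ± 0.15, adjusted p 0.462) and Rgs5 at 23.3 to 44.0 and 24.1 to 27.0 RPKM (-0.30 ± 0.19, adjusted p 0.466). In each of these lists the summed ranges of the groups overlapped.

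Myofibre markers (17, none called, 0 and 0) varied most among the locked libraries, from 206 to 895 RPKM, against 314 to 538 RPKM in the free ones, with Tpm2 at 22.6 to 28.0 and 26.8 to 34.3 RPKM (log2 0.22 ± 0.11, limma adjusted p 0.334). Tenocyte markers (10, none called, 0 and 0) summed to 48.9 to 156 and 65.7 to 97.1 RPKM, with Mkx at 2.00 to 5.38 and 2.79 to 3.26 RPKM (-0.34 ± 0.23, adjusted p 0.497) and Ptx4 at 0.786 to 7.14 and 2.40 to 4.72 RPKM (0.33 ± 0.48, adjusted p 0.791). Keratinocyte markers (14, none called, 0 and 1) summed to 14.0 to 17.4 and 14.4 to 16.2 RPKM, and 9 of them had a mean under 1 RPKM, with Sbsn at 4.18 to 6.36 and 5.44 to 6.56 RPKM (0.31 ± 0.17, adjusted p 0.374) and Perp at 1.11 to 2.22 and 0.506 to 1.58 RPKM (-0.78 ± 0.30, adjusted p 0.193).

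Among 13 Schwann and glial markers 1 was called, where 1.12% of all genes were called. Mbp, a gene of myelin, read 7.31, 6.53, 7.05, 7.10, 10.7 and 8.02 RPKM in locked-wheel replicates 1 to 6 and 3.99, 5.77 and 4.45 RPKM in the free libraries, and fell by 0.71 ± 0.13 on the log2 scale (limma adjusted p 0.0117). Only the omission of free-wheel replicate 1 ended that call (0.126). The list as a whole summed to 328 to 387 and 333 to 389 RPKM with 0 higher and 4 lower unadjusted (6.9% and 8.94% of all genes), and 4 of its genes had a mean under 1 RPKM. The part of glial cells in the difference of Mbp was not tested.

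The old mice of the same cohort allow the young response to be set beside another. The comparisons share no library, though all libraries were adjusted together and enter the same fit. In old mice 838 genes (7.39%) were called for the wheel, 464 higher (4.09%) and 374 lower (3.3%). Of the 127 genes called in young mice, 117 differed in the same direction in old mice and 52 were also called there, 22 higher and 30 lower, which is 40.9% of the young and 6.21% of the old calls. None was called in the opposite direction, and 75 were not called in old mice. The difference was larger in young mice in 120 of the 127, which is a property of genes chosen for their difference in young mice.

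Genes called in both ages included several of division and matrix. In old mice Ube2c gave log2 1.66 (limma adjusted p 0.00138), Top2a 1.22 (0.00399), Ccnb2 0.95 (0.00294), Stmn1 0.69 (0.00247), Bgn 1.13 (4.64e-05), Col8a1 1.34 (0.0212), Dmp1 1.82 (0.00399), Lrrn1 1.19 (0.00289) and Atp2a3 0.77 (0.00941), all called. Decreases called in old mice as well included Vegfa at -0.42 (adjusted p 0.00247), Homer1 at -0.54 (0.00313), Procr at -0.70 (0.0142), Nnmt at -0.68 (0.00523), Cxcl5 at -1.02 (0.0133), Gal at -0.52 (0.0398) and Txnrd1 at -0.32 (0.0169). For none of these 16 genes was the old minus young difference called, the lowest adjusted p being 0.667 for Gal. Ckap2l, the other G2/M gene called in young mice, gave 0.84 in old mice and was not called there (limma adjusted p 0.073). Of the 30 G2/M genes 11 were called higher in old mice, against 4.09% of all genes, and their median there was 0.35. Ccnd1, not called in young mice, rose in old mice by 1.24 ± 0.13 (adjusted p 4.01e-05), from 6.11, 7.34 and 9.70 RPKM (lowest, median and highest, locked) to 14.9, 18.1 and 23.9 RPKM (free). The old minus young difference of Ccnd1 was 0.63 ± 0.21, with a limma unadjusted p of 0.00594 and an adjusted p over all genes of 0.429. Myog, also not called in young mice, rose in old mice by 1.76 ± 0.40 (limma adjusted p 0.0145). The old minus young difference of Myog was -0.0008 ± 0.63.

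Nr2f6 was the 1 gene of 11337 (0.00882%) whose wheel difference itself differed between the ages at a limma adjusted p under 0.05. In old mice it read 4.69, 5.73 and 6.98 RPKM with the wheel locked and 5.61, 5.91 and 7.54 RPKM with it free (lowest, median and highest), a difference of 0.11 ± 0.14 (adjusted p 0.663). The old minus young difference of Nr2f6 was 1.60 ± 0.21 (adjusted p 0.00169), and it was called in each of the 9 omissions. At an unadjusted p under 0.05, 960 genes (8.47%) differed between the ages, of which 53 were among the 127. The 127 were chosen for their difference in young mice, which is part of this comparison. The choice itself thus raises the 53.

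Some genes called in young mice had values near 0 in old mice, yet the difference between ages was not called for them. Ass1 gave 0.07 ± 0.12 in old mice (4.87 to 7.52 RPKM locked and 5.65 to 7.10 RPKM free), with an old minus young difference of -1.0 ± 0.20 and a limma adjusted p of 0.149. Cx3cl1 gave -0.06 in old mice (adjusted p of the difference 0.223), Adamtsl4 -0.08 (0.241), Dusp6 0.18 (0.429), Prelp 0.16 (0.429), Lgr4 -0.06 (0.429) and Hmox1 -0.09 (0.504). Srxn1 gave -0.32 in old mice (adjusted p 0.0598), at 372 to 514 RPKM locked and 300.2 to 428 RPKM free, with an adjusted p of the difference of 0.429. A miss at this threshold does not show that the ages respond alike.

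**Figure D5:**
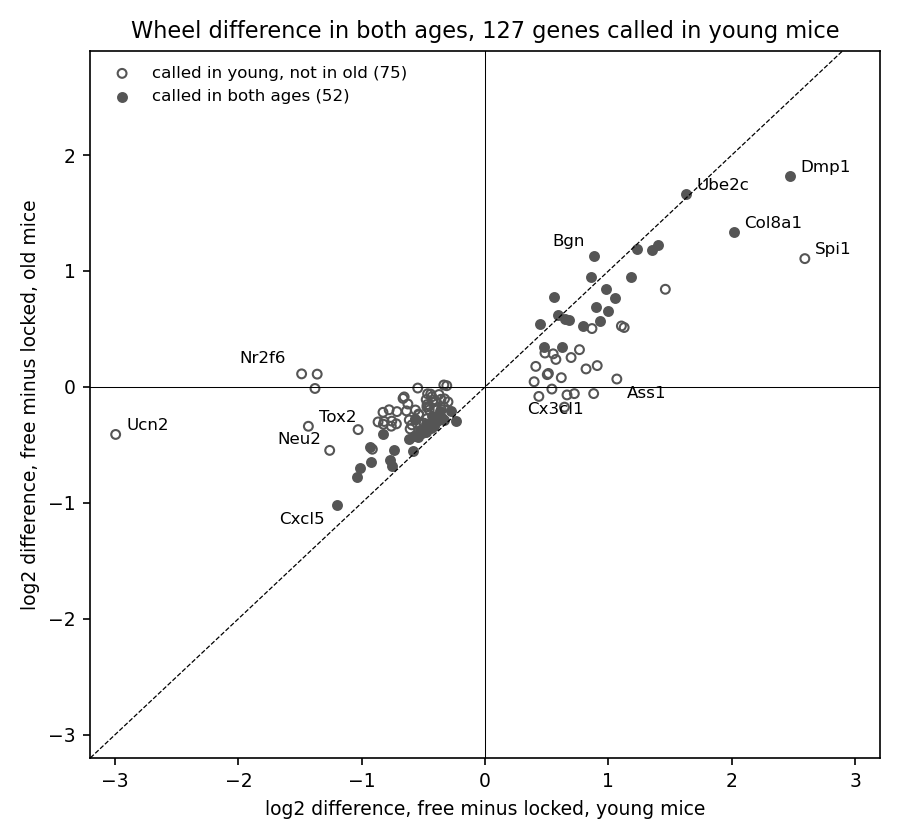
The log2 difference, free minus locked wheel, of the 127 genes called in young mice, in young mice (x axis) and in old mice (y axis). Filled points were called in both ages (52), open points were not called in old mice (75), and the dashed line marks equal differences. Most points lie on the same side of 0 in both ages and closer to 0 in old mice, and Nr2f6 lies near 0 in old mice.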

How the data were processed

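RNA of sorted muscle stem cells was sequenced, 1 library per mouse. Per the labels' protocols, 10 ng of RNA was reverse transcribed from oligo(dT) primers, amplified with 13 to 15 cycles of PCR and read as 101 bp pairs. The submitters' processing notes list Trim Galore, STAR, Subread's featureCounts and the mm10 build. The sources used here state no versions and no strand setting, so antisense and overlapping genes are uncertain. The authors deposited 1 table of 11337 genes by 36 libraries, without zeros. The table does not name its unit. It was taken as RPKM from the values deposited, since in the young libraries the products of value and exon length (kb) added up to between 1011197 and 1121499. A further column, the authors' deposited score of each gene's correlation with Ccnd1, was not used. The rank of the log2 values shows an adjustment whose method those sources do not state.

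Values were taken as log2 RPKM without a pseudocount or a filter on low values. A linear model with 1 mean per group was fitted to the 21 libraries of the wheel cohort with limma 3.58.1 (eBayes with trend and robust settings, statmod 1.5.0, R 4.3.3), which lets the young groups share the spread of all 4 groups. Benjamini-Hochberg adjustment ran over all 11337 genes, and a gene was called at an adjusted p under 0.05. The wheel difference in old mice and the old minus young difference came from the same fit. Ccnd1 alone was tested by exact permutation. The fit was tested on simulated data. Tables and figures were made with Python 3.11.15, numpy 2.4.6, pandas 2.3.3 and matplotlib 3.10.9.

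The comparison, the 43 gene lists (1203 of 1369 genes found) and the naming rule were chosen with earlier results of these data known. Genes named were those called, averaging 5 RPKM or more, with all free values on 1 side of the locked mean (the 12 largest increases and 12 largest decreases, clone and gene model names left out), up to 2 called genes per list and direction by lowest p, genes called in all 9 omissions, genes called for the difference between ages, Ccnd1, the sort markers, and the 2 lowest p in lists without a call. A gene that met this rule is not reported here. Other genes are said to have been picked after their values were seen. Positions came from GENCODE M21 and promoter windows from RefSeq GRCm38.p6. Alternatives were other sets of libraries in the fit, a pseudocount of 1, a minimum of 1 RPKM, median-of-ratios (RLE) scaling, plain eBayes, a replicate block and the omission of each library. The labels number the replicates, but deviations of same-numbered young libraries from their group means correlated at 0.029, -0.008 and 0.039, so the numbers were not used as pairs. Per the labels each replicate is a separate mouse.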

Additional observations from a re-analysis of the deposited data

Results flagged for a closer look

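Dixon's test was applied to the 6 locked-wheel values of 122 named genes, and in 6 of them 1 library stood apart. That is about the share that chance alone flags, 1 in 20 groups. Locked-wheel replicate 4 was the library that stood apart for Col8a1 (1.99 RPKM, others 4.06 to 4.63), Cxcl5 (125.5 RPKM, others 53.2 to 75.9) and Srsf7 (301.5 RPKM, others 268.5 to 276.5). Locked-wheel replicate 3 stood apart for Tfam (12.3 RPKM, others 14.9 to 15.9) and Ptx4 (7.14 RPKM, others 0.786 to 3.01). Mbp was high in locked-wheel replicate 5 (10.7 RPKM, others 6.53 to 8.02). The low Tfam value of locked-wheel replicate 3 lay on the side of the free-wheel libraries.

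The wheel difference of Nr2f6 differed between old and young mice by 1.60 on the log2 scale (limma adjusted p 0.00169), with all 3 young free-wheel libraries under all 6 young locked-wheel libraries.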

How the results depend on the processing

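The count of 127 genes called for the wheel in young mice became 22 with only the 9 young libraries in the fit, 84 with plain eBayes, and 5 to 205 when 1 library was omitted. It was 164 with all 36 libraries, 154 with log2(RPKM + 1), 124 with a minimum of 1 RPKM and 140 with RLE scaling. With the replicate number as a block, although same-numbered libraries did not deviate together, 14 genes were called, 13 of them among the 127, and Ccnd1 gave a log2 difference of 0.56 with an exact p of 0.25 over 8 sign flips (smallest possible 0.125). Without 1 library, Ccnd1 gave 0.51 to 0.70 with exact permutation p of 0.0179 to 0.0357. The 1 call for the difference between ages (Nr2f6) became 2 with log2(RPKM + 1), where S100a4 was added, and 1 to 5 when 1 library was omitted: Zc3h12a was added without locked-wheel replicate 4, and Ass1, Nr1d1, S100a4 and 1700019D03Rik without free-wheel replicate 3. Of the 122 named genes, the 66 called kept their sign under every alternative run, as genes chosen for their difference in these libraries mostly would. Signs changed in 13 fits of uncalled genes. With the replicate block Ly6a gave 0.013, Pax7 0.0297, Pecam1 0.00233 and Ptx4 -0.0671. Omissions gave -0.138 to 0.0201 for Pax7, -0.133 to 0.0611 for Pecam1, -0.00793 to 0.629 for Ptx4 and -0.0651 to 0.236 for Kdr. The depth of single libraries is not known, so counting error behind values under 1 RPKM could not be given. Such values occurred for Spi1, Ucn2, Ckap2l, Dmp1, Tubb3, Ube2c, Adam12, Hlf and Tox2, among others.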
